A study of Homo sapiens with 9 samples.

Results

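The 41 genes described here encode the enzymes and transporters by which the liver clears drugs and other foreign compounds, together with the receptors that switch these genes on. They were chosen by name, with earlier results of these data known. For each gene the brightest probe set annotated to 1 gene symbol was read. Of the 41, 35 had such a probe set, out of 19775 genes tested, and CYP2C19, CYP3A7, UGT2B7, UGT2B10, UGT2B11 and NR1I2 were not analysed here. The 9 Affymetrix arrays carried RNA from HepG2, an established human hepatoma line that retains part of the hepatocyte's functions. The cells had been given 100 nM GW7647, a synthetic compound that activates the nuclear receptor PPARα, for 24 h (3 arrays), 100 nM GW7647 for 6 h (3 arrays), or the DMSO vehicle (3 arrays). All groups were grown in medium without phenol red that held fetal bovine serum. The sources used here give no duration for the vehicle, so exposure to the agonist and time in culture cannot be told apart.

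Drug metabolism is usually divided into phases. Cytochrome P450s, flavin monooxygenases, alcohol dehydrogenases, epoxide hydrolases and carboxylesterases oxidise or hydrolyse a compound. Glucuronosyltransferases, sulfotransferases, glutathione transferases and acetyltransferases then attach a polar group, and ATP-driven pumps export the product into bile or back to blood. The pregnane X receptor (NR1I2) and the constitutive androstane receptor (NR1I3) sense foreign compounds and induce many of these genes, and PPARα is known to act on some of them in human hepatocytes. HepG2 cells are known for low levels of many hepatic P450s.

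Values are log2 RMA signals, and a difference of 1 is a doubling. Across genes, which are not independent replicates, r was 0.997 to 0.999 for 9 pairs of arrays within groups and 0.995 to 0.998 for 27 pairs between groups. All 10 of 10 hepatocyte markers had a signal above 6.74, the median over all genes and arrays, with a mean over the markers of 13.44 to 13.46 on the 24 h arrays, 13.54 to 13.55 on the 6 h arrays and 13.57 to 13.62 on the vehicle arrays. Of these 10, FGB and TTR fell at 24 h and the other 8 did not pass. Of 12 measured markers of other liver cells, 5 were above the median signal, 1 (ACTA2) rose at 24 h, 0 passed at 6 h by limma (2 at an unadjusted p under 0.05), and their mean was 6.77 to 6.85 at 24 h, 6.80 to 6.83 at 6 h and 6.76 to 6.82 in vehicle. The part of these shifts in the results below was not tested. Of the 35 members, 22 were above the median signal and 13 below it, among them CYP2B6, CYP2C8, CYP2E1, SULT1E1, both uptake carriers and NR1I3. For 15 members the same value recurred on 2 or more arrays, 8 of them below the median signal.

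In all, 12 of the 35 members passed limma's test (adjusted p under 0.05 over all 19775 genes) in at least 1 of 3 comparisons (34.3%, where 16.7% of all genes did), and 23 passed in none. Against vehicle, 1 member rose and 6 fell at 24 h (20.0% of the 35), where 8.17% of all genes passed, 5.38% higher and 2.80% lower. At 6 h 0 rose and 5 fell (14.3%), where 3.54% of all genes passed, 1.64% higher and 1.91% lower (324 and 377 genes; quantile normalization gave 419 and 328, and centring each array on its median 255 and 416). At an unadjusted p under 0.05, 2 members were higher and 8 lower at 6 h. The 5 falls at 6 h became 2 without vehicle replicate 3, any 1 of the 6 h arrays or 24 h replicate 1, and 3 without vehicle replicate 2 or 24 h replicate 3, and the 1 rise at 24 h became 2 without vehicle replicate 2. Between 24 h and 6 h, 4 were higher and 6 lower at 24 h (28.6%), where 13.8% of all genes passed, 9.23% higher and 4.57% lower (1826 and 903 genes, or 1457 and 1207 after a further quantile normalization). Among genes above the median signal, the shares that passed were 14.3% at 24 h, 6.34% at 6 h and 24.3% for 24 h against 6 h, and the 22 bright members passed at 22.7%, 22.7% and 40.9% in the same order. The median log2 change of the 35 members was -0.07 at 24 h and -0.01 at 6 h, beside 0.003 and 0.004 for all genes. Members that did not pass had log2 changes of -0.38 to 0.17 at 24 h (28 members) and -0.39 to 0.20 at 6 h (30 members). Both comparisons with vehicle share the vehicle arrays. In RNA from whole cultures, fewer cells of a kind and less RNA per cell cannot be told apart.

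Groups of arrays were also compared by whether they overlapped. At 24 h 15 members did not overlap their vehicle arrays, where 23.0% of all genes did not, with 3 above (14.0% of all genes) and 12 below (8.95%). At 6 h this held for 10 members (20.8% of all genes), 3 above (10.5%) and 7 below (10.3%). Between 24 h and 6 h it held for 18 members (33.0% of all genes), 8 above (19.2%) and 10 below (13.8%).

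**Figure D1:**
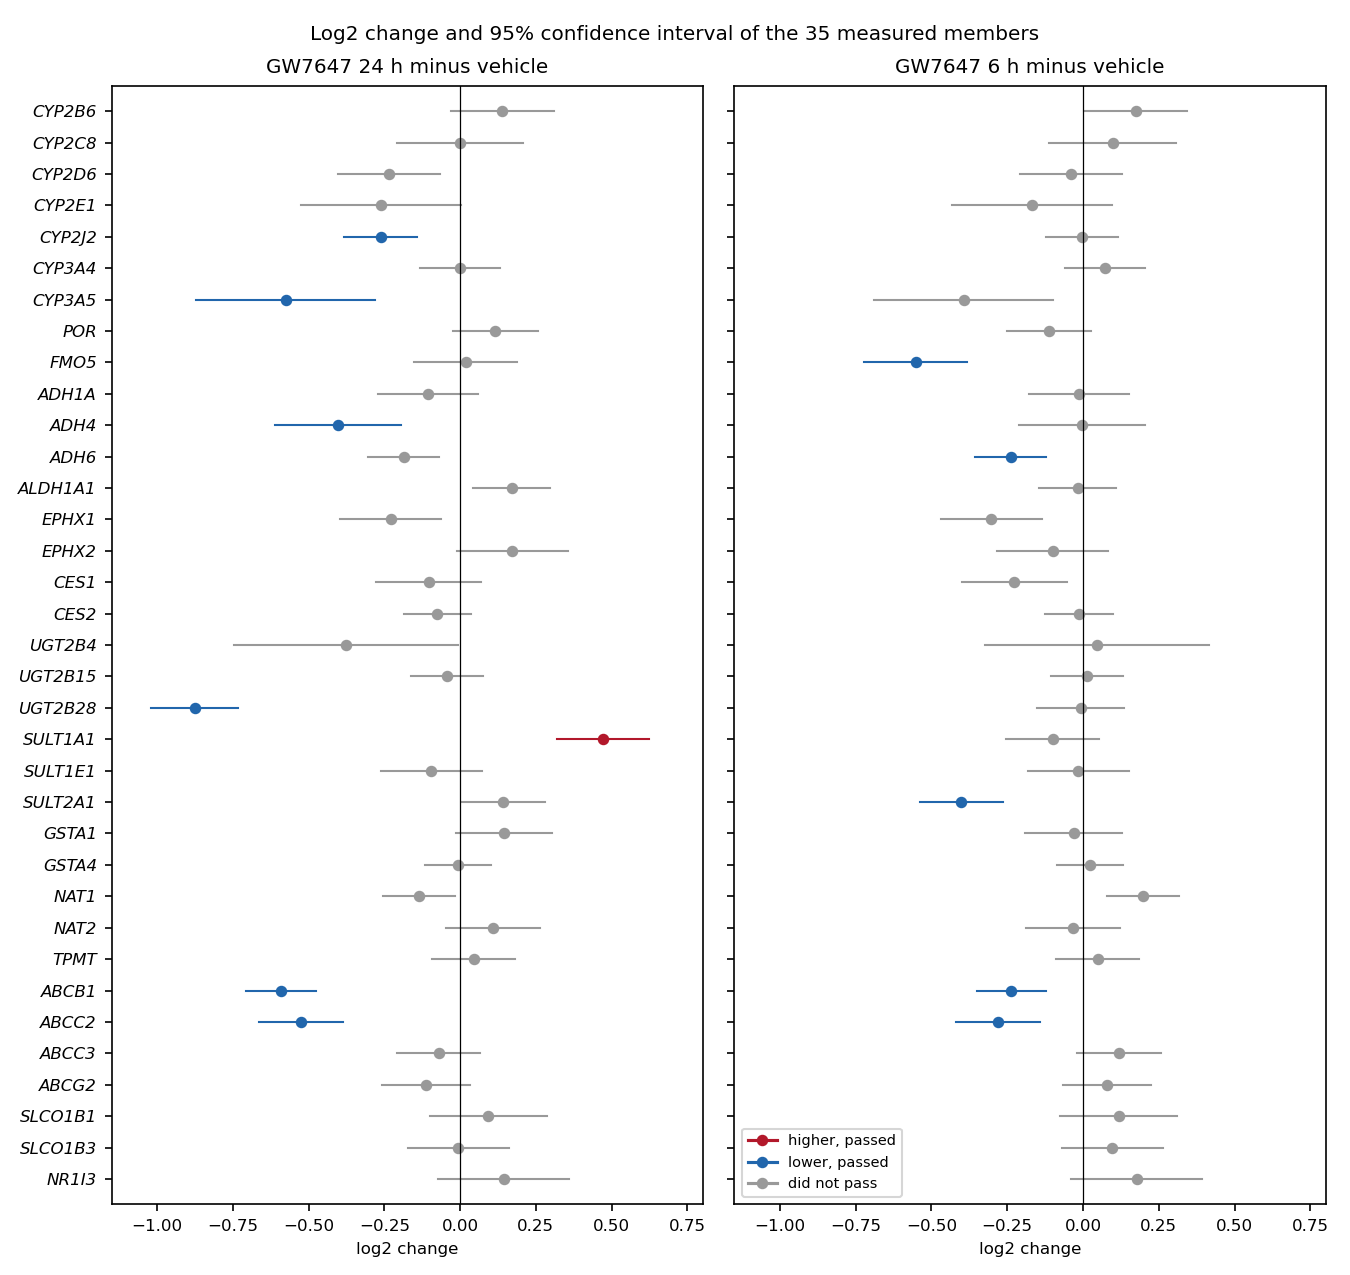
Log2 change (points) with 95% confidence interval (lines) of each of the 35 measured members, for GW7647 24 h minus vehicle on the left and GW7647 6 h minus vehicle on the right; red passed higher, blue passed lower and grey did not pass. UGT2B28 has the lowest value at 24 h (-0.88) and FMO5 the lowest at 6 h (-0.55), while SULT1A1 (0.47) is the member that passed higher.

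Of 4 efflux pumps, ABCB1 and ABCC2 fell at 24 h and at 6 h, and ABCC3 and ABCG2 did not pass. ABCB1, the P-glycoprotein pump that expels many drugs, read 8.12, 8.09 and 8.13 log2 units at 24 h, 8.45, 8.48 and 8.48 at 6 h, and 8.72, 8.64 and 8.75 in vehicle. Its groups did not overlap, with 24 h lowest and vehicle highest. ABCB1 fell by 0.59 at 24 h (log2 change -0.59 ± 0.05 SE, adjusted p = 6.9e-05, n = 3 arrays per group), which is 1.51-fold (95% confidence interval 1.39 to 1.63), and at 6 h its log2 change was -0.24 ± 0.05 (adjusted p = 0.0339). A second ABCB1 probe set, below the median signal, gave -0.24 ± 0.07 at 24 h and 0.0257 ± 0.0725 at 6 h, and with the probe sets averaged the 6 h change was -0.11 and did not pass (adjusted p = 0.308), nor did it after quantile normalization (adjusted p = 0.0613). ABCC2, which secretes conjugates into bile, read 10.78, 10.76 and 10.92 at 24 h, 11.09, 11.09 and 11.02 at 6 h, and 11.28, 11.42 and 11.34 in vehicle. These groups lay apart in the same order, and the log2 change was -0.52 ± 0.06 at 24 h (1.44-fold, adjusted p = 0.000615) and -0.28 ± 0.06 at 6 h (1.22-fold, adjusted p = 0.0361). The further fall between 6 h and 24 h also passed, at -0.35 ± 0.05 for ABCB1 (adjusted p = 0.00119) and -0.24 ± 0.06 for ABCC2 (adjusted p = 0.0252).

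ABCC3, a pump of the basolateral membrane, and ABCG2, the breast cancer resistance protein, did not pass in any comparison. ABCC3 read 9.58, 9.58 and 9.43 at 24 h, 9.77, 9.74 and 9.65 at 6 h, and 9.65, 9.54 and 9.61 in vehicle. ABCG2 read 8.36, 8.27 and 8.21 at 24 h, 8.57, 8.41 and 8.43 at 6 h, and 8.39, 8.33 and 8.46 in vehicle. All 4 efflux members lay below their 6 h arrays at 24 h without overlap, as did 13.8% of all genes, but the 24 h minus 6 h differences of ABCC3 (-0.19 ± 0.06, adjusted p = 0.0728) and ABCG2 (-0.19 ± 0.07, adjusted p = 0.0825) did not pass. After quantile normalization both passed (adjusted p = 0.0277 for ABCC3 and 0.0281 for ABCG2). Both uptake carriers, SLCO1B1 and SLCO1B3, which take up organic anions such as statins, were below the median signal, and their changes lay between -0.10 and 0.12 log2 units over the 3 comparisons. The 6 h call of ABCB1 did not hold without vehicle replicate 1 or 3, any 1 of the 6 h arrays, or 24 h replicate 1 or 3 (adjusted p up to 0.126), and that of ABCC2 without vehicle replicate 2 or 3, any 1 of the 6 h arrays, or 24 h replicate 1 (up to 0.125). The 24 h against 6 h call of ABCC2 did not hold without 24 h replicate 1 or 2 or 6 h replicate 1 or 2 (up to 0.094), while both 24 h calls against vehicle held in all 9 fits that left out 1 array.

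FMO5 and SULT2A1 fell at 6 h and stood close to or above vehicle at 24 h. FMO5, a flavin monooxygenase that oxidises ketones, read 8.66, 8.82 and 8.70 at 24 h, 8.13, 8.06 and 8.27 at 6 h, and 8.83, 8.67 and 8.61 in vehicle. The 6 h arrays lay below all others, while the 24 h and vehicle arrays overlapped. Its log2 change was -0.55 ± 0.08 at 6 h (1.47-fold lower, 95% confidence interval 1.30 to 1.65, adjusted p = 0.00319) and 0.02 ± 0.08 at 24 h (adjusted p = 0.925, interval -0.15 to 0.19). From 6 h to 24 h the difference was 0.57 ± 0.08 (adjusted p = 0.000697). A second FMO5 probe set above the median signal gave -0.40 ± 0.08 at 6 h (adjusted p = 0.0343 with every probe set tested on its own) and 0.44 ± 0.08 for 24 h against 6 h.

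SULT2A1, which sulfates steroids and bile acids, read 10.81, 10.86 and 10.90 at 24 h, 10.36, 10.31 and 10.26 at 6 h, and 10.73, 10.80 and 10.61 in vehicle. Every 24 h array was above every vehicle array, and every 6 h array was below them. The log2 change was -0.40 ± 0.06 at 6 h (1.32-fold lower, adjusted p = 0.00585) and 0.14 ± 0.06 at 24 h, which did not pass (adjusted p = 0.216). Between 24 h and 6 h it was 0.54 ± 0.06 (1.46-fold, adjusted p = 0.000277). The second probe set of SULT2A1 gave -0.43 ± 0.08 at 6 h and 0.0095 ± 0.0768 at 24 h. All calls of FMO5 and SULT2A1 held in the 9 fits that left out 1 array. POR, the reductase that passes electrons to microsomal P450s, read 10.52, 10.63 and 10.64 at 24 h, 10.33, 10.36 and 10.41 at 6 h, and 10.39, 10.57 and 10.49 in vehicle. The 24 h arrays lay above the 6 h arrays, and neither was apart from vehicle. POR was higher at 24 h than at 6 h by 0.23 ± 0.06 (adjusted p = 0.0344), but not when 24 h replicate 2 or 3, or any 6 h array, was left out (adjusted p up to 0.118), and against vehicle it had 0.12 ± 0.06 at 24 h and -0.11 ± 0.06 at 6 h, neither of which passed.

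**Figure D2:**
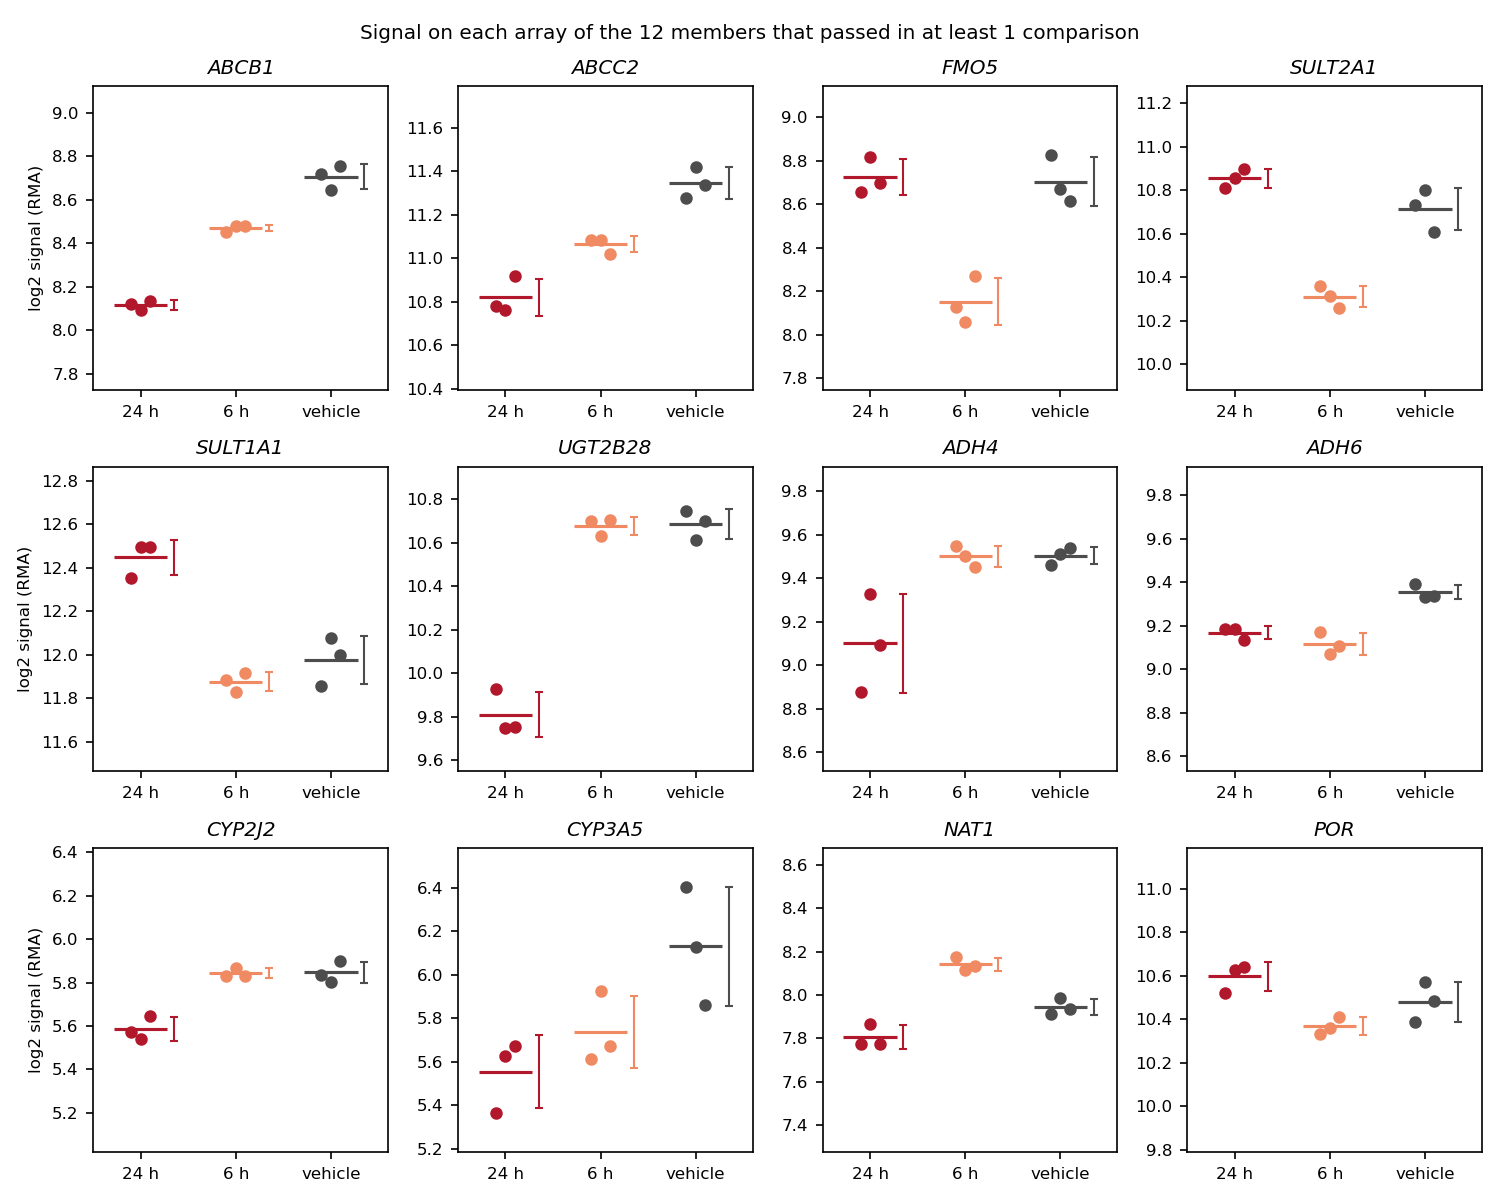
Log2 signal of each array (points) for the 12 members that passed in at least 1 comparison, with the group mean (line) and SD (bar at the right, n = 3), for GW7647 24 h, GW7647 6 h and vehicle; each panel spans the same range of 1.4 log2 units. ABCB1 and ABCC2 are lowest at 24 h and highest in vehicle, FMO5 and SULT2A1 are low at 6 h alone, and UGT2B28 is low at 24 h alone.

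Of the 10 other measured conjugating enzymes, UGT2B28 fell and SULT1A1 rose at 24 h, and the other 8 did not pass against vehicle at either time. UGT2B28, a glucuronosyltransferase of steroids, read 9.93, 9.75 and 9.75 at 24 h, 10.70, 10.63 and 10.71 at 6 h, and 10.75, 10.61 and 10.70 in vehicle. The 24 h arrays lay below all 6 others, which overlapped. It fell at 24 h by 0.88 log2 units (-0.88 ± 0.07, 1.84-fold lower, 95% confidence interval 1.66 to 2.03, adjusted p = 1.86e-05), and at 6 h the change was -0.01 ± 0.07 (adjusted p = 0.971, interval -0.15 to 0.14). The difference between 24 h and 6 h was -0.87 ± 0.07 (adjusted p = 2e-05). Its 1 probe set carries the ending that marks probes shared between genes, and UGT2B genes are close copies of each other, so which of them fell is uncertain. UGT2B4 and UGT2B15, both below the median signal, had -0.38 ± 0.17 and -0.04 ± 0.05 at 24 h and did not pass. Without 24 h replicate 1 the UGT2B4 fall passed (-0.59, adjusted p = 0.024), as did its 24 h minus 6 h difference (-0.64, adjusted p = 0.0106).

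SULT1A1, which sulfates small phenols, read 12.35, 12.49 and 12.50 at 24 h, 11.88, 11.83 and 11.92 at 6 h, and 11.86, 12.08 and 12.00 in vehicle. The 24 h arrays were above all others. It rose at 24 h by 0.47 ± 0.07 (1.39-fold, 95% confidence interval 1.25 to 1.54, adjusted p = 0.00197), had -0.10 ± 0.07 at 6 h (adjusted p = 0.531), and was 0.57 ± 0.07 higher at 24 h than at 6 h (adjusted p = 0.000379). A second probe set gave 0.40 ± 0.06 at 24 h, and both end in the mark of shared probes, which the close copies of SULT1A1 could also bind. Another, without shared probes and below the median signal, gave -0.04 ± 0.08 at 24 h. NAT1, an arylamine acetyltransferase, read 7.78, 7.87 and 7.78 at 24 h, 8.18, 8.12 and 8.13 at 6 h, and 7.91, 7.98 and 7.94 in vehicle. The 6 h arrays were highest and the 24 h arrays lowest, and the 3 groups did not overlap. The 24 h minus 6 h difference of NAT1 passed (-0.33 ± 0.05, adjusted p = 0.00201), whereas -0.14 ± 0.05 at 24 h and 0.20 ± 0.05 at 6 h against vehicle did not (adjusted p = 0.163 and 0.0756, the second 0.0301 after quantile normalization). SULT1E1, GSTA1, GSTA4, NAT2 and TPMT did not pass in any comparison. GSTA1 passed for 24 h against 6 h without 24 h replicate 3 (0.25, adjusted p = 0.0423).

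**Figure D3:**
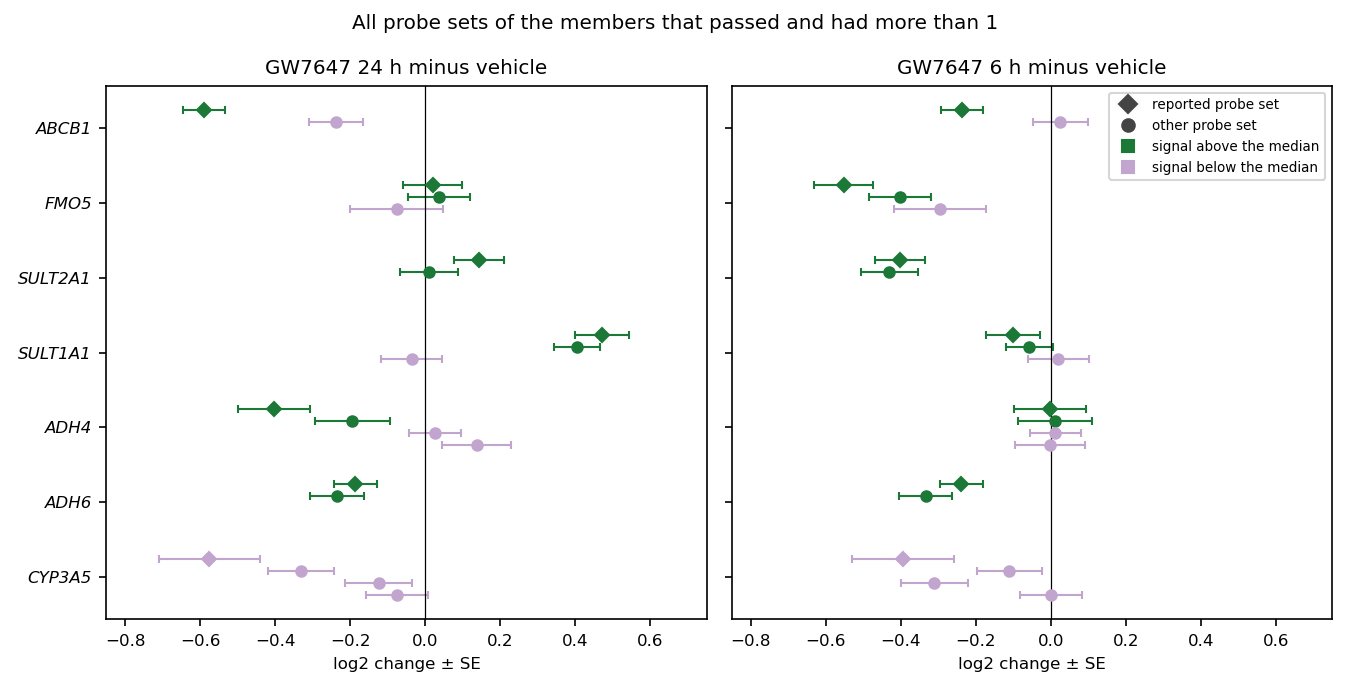
Log2 change ± SE of every probe set of the 7 members that passed and had more than 1, for GW7647 24 h minus vehicle on the left and GW7647 6 h minus vehicle on the right; diamonds are the probe sets reported, circles the others, green above and lilac below the median signal. The probe sets of FMO5 and SULT2A1 all lie below 0 at 6 h, whereas those of ADH4 at 24 h lie on both sides of 0, from -0.40 to 0.14.

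Among the phase I enzymes, 2 P450s, both below the median signal, fell at 24 h and 0 of 7 passed at 6 h by limma; at an unadjusted p under 0.05, CYP2B6 and CYP3A5 were the P450s with a change at 6 h. CYP2J2, an epoxygenase of arachidonic acid, read 5.57, 5.54 and 5.64 at 24 h, 5.83, 5.87 and 5.83 at 6 h, and 5.84, 5.80 and 5.90 in vehicle. The 24 h arrays lay below the rest, with a log2 change of -0.26 ± 0.05 against vehicle (1.20-fold lower, adjusted p = 0.0133) and -0.26 ± 0.05 against 6 h (adjusted p = 0.00911). CYP3A5, a close relative of CYP3A4, read 5.36, 5.63 and 5.67 at 24 h, 5.61, 5.92 and 5.67 at 6 h, and 6.40, 6.13 and 5.86 in vehicle. Its vehicle arrays spread widely, and the 6 h arrays overlapped both other groups. The log2 change was -0.58 ± 0.13 at 24 h (1.49-fold lower, 95% confidence interval 1.22 to 1.83, adjusted p = 0.024) and -0.39 ± 0.13 at 6 h, which did not pass (adjusted p = 0.159). The CYP2J2 call against vehicle did not hold without 24 h replicate 2 (adjusted p = 0.0519), nor that of CYP3A5 without 24 h replicate 1 or 2 or vehicle replicate 1 or 2 (up to 0.086; log2 change -0.44 without vehicle replicate 1). All 4 probe sets of CYP3A5 were below the median signal, and those not reported gave -0.33 to -0.08 at 24 h.

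CYP3A4, the main drug-oxidising P450 of adult liver, did not pass in any comparison. It read 7.67, 7.72 and 7.80 at 24 h, 7.73, 7.82 and 7.85 at 6 h, and 7.79, 7.68 and 7.71 in vehicle, and all groups overlapped. Its log2 change was 0.0002 at 24 h (interval -0.13 to 0.13, adjusted p = 0.999) and 0.07 ± 0.06 at 6 h (interval -0.06 to 0.20, adjusted p = 0.616), on a probe set with shared probes. CYP2B6, a typical target of NR1I3, read 4.76, 4.82 and 4.76 at 24 h, 4.93, 4.76 and 4.76 at 6 h, and 4.49, 4.76 and 4.68 in vehicle, and its changes of 0.14 ± 0.08 at 24 h and 0.17 ± 0.08 at 6 h did not pass (adjusted p = 0.341 and 0.29). CYP2C8, which oxidises paclitaxel, read 3.83, 3.54 and 3.44 at 24 h, 3.68, 3.74 and 3.68 at 6 h, and 3.72, 3.58 and 3.50 in vehicle. Its groups overlapped, and the log2 change was -0.0011 ± 0.0947 at 24 h and 0.10 ± 0.09 at 6 h, neither of which passed. CYP2D6 and CYP2E1 had -0.23 ± 0.08 and -0.26 ± 0.12 at 24 h and did not pass (adjusted p = 0.091 and 0.243). A second CYP2D6 probe set, also above the median signal, gave 0.07 ± 0.09 at 24 h. The further probe sets of CYP2E1, all below the median signal, gave -0.24 to -0.11.

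NR1I3 itself read 5.13, 4.81 and 5.17 at 24 h, 5.04, 5.05 and 5.12 at 6 h, and 5.00, 4.95 and 4.74 in vehicle. Its 6 h group lay wholly above vehicle, a position shared by 10.5% of all genes, yet the change of 0.18 ± 0.10 did not pass (adjusted p = 0.419), nor did 0.14 ± 0.10 at 24 h (adjusted p = 0.453).

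Receptors of this class bind copies of a short motif, which was searched in the members' promoters. Promoters of 300 bases, from 250 before to 50 after a start site, came from RefSeq (GRCh38.p14), which gave 41 promoters of 31 members. The letters AGGTCA on either strand stood in 12 of these 41 (29.3%) and in 13.8% of 35116 promoters of the same length, and AGTTCA in 7 (17.1%) and in 10.4%. Those with AGGTCA include the close relatives UGT2B10, UGT2B11 and UGT2B15, and CYP3A4, CYP3A5 and CYP3A7. Some promoters of ABCG2 overlap each other. The 41 are thus not independent, and the difference in shares was not tested. The direct repeat of AGGTCA with 1 base between its copies stood in 0 of the 41 and 8 of the 35116, and the palindromic HNF1 consensus in 0 and 2. CYP3A5 and CYP3A4 share an everted arrangement, TGAACT followed by any 6 bases and then AGGTCA, found in 3 of the 35116 promoters; it was searched after the single motifs had been seen, contains them, and is the kind of site that the pregnane X receptor is known to bind. It starts at position -113 in CYP3A5 and -169 in CYP3A4, counted from the start site. The sequences below run 5′ to 3′ along the gene, with both single motifs and their reverse complements in capitals. They are shown for CYP3A5, which fell at 24 h, for CYP3A4, which did not pass, for SULT2A1, which fell at 6 h alone, and for ABCB1, whose reported probe set fell at both times.
CYP3A5, chr7:99679947-99680246, minus strand: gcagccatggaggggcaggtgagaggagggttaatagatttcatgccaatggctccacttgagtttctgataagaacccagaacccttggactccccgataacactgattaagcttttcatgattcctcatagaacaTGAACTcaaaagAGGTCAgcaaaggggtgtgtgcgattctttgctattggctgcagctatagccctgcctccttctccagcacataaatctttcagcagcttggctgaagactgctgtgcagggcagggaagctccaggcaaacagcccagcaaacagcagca
CYP3A4, chr7:99784135-99784434, minus strand: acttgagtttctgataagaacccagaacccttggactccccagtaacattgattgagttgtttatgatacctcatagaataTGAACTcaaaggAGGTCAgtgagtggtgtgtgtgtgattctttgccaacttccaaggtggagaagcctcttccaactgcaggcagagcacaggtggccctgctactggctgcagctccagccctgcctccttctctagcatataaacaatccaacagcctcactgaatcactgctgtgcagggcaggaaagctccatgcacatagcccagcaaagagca
SULT2A1, chr19:47886266-47886565, minus strand: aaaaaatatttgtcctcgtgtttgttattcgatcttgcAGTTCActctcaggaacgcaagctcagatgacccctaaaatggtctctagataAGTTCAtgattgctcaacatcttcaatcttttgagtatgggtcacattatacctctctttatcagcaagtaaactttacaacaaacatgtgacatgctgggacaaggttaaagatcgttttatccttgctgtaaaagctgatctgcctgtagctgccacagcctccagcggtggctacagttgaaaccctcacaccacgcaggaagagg
ABCB1, chr7:87713246-87713545, minus strand: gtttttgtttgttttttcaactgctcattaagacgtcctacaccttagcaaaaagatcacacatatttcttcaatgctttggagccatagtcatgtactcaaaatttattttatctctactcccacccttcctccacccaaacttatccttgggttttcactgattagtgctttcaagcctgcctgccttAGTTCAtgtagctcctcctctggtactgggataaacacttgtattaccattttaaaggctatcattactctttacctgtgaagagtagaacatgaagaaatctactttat
SULT2A1 holds AGTTCA at positions -212 and -159, and ABCB1 holds it at -60 of this start site and at no place in its other promoter in the table. FMO5, ABCC2, CYP2J2, ADH4 and ADH6, which also passed in at least 1 comparison, hold none of the motifs in their windows. POR, UGT2B28, SULT1A1 and NAT1 had no promoter among the 41. The arrays do not show which start site was used, and a match is a description of letters alone.

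Of the alcohol and aldehyde dehydrogenases, ADH4 fell at 24 h and ADH6 at 6 h, and ADH1A and ALDH1A1 did not pass. ADH4, which oxidises retinol and long alcohols, read 8.88, 9.33 and 9.09 at 24 h, 9.55, 9.50 and 9.45 at 6 h, and 9.46, 9.51 and 9.54 in vehicle. The 24 h arrays were all lower and more spread than the rest. Its log2 change was -0.40 ± 0.09 at 24 h (1.32-fold lower, adjusted p = 0.0245), -0.0029 ± 0.0943 at 6 h, and -0.40 ± 0.09 for 24 h against 6 h (adjusted p = 0.0162). The ADH4 call against vehicle did not hold without 24 h replicate 1 or 3 or any 1 of the vehicle arrays (adjusted p up to 0.068), and that against 6 h without 6 h replicate 1 or 2 (up to 0.0642). Averaged over its 4 probe sets the 24 h change of ADH4 was -0.11 against vehicle (adjusted p = 0.36) and -0.11 against 6 h (adjusted p = 0.285), so both calls were lost.

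ADH6 read 9.18, 9.19 and 9.13 at 24 h, 9.17, 9.07 and 9.11 at 6 h, and 9.39, 9.33 and 9.34 in vehicle. Both treated groups lay below vehicle and overlapped each other. The log2 change was -0.19 ± 0.05 at 24 h (adjusted p = 0.055) and -0.24 ± 0.05 at 6 h (1.18-fold lower, adjusted p = 0.0349), so the 6 h value passed and the 24 h value did not. After quantile normalization this turned round (adjusted p = 0.023 at 24 h and 0.0574 at 6 h). A second ADH6 probe set above the median signal gave -0.24 ± 0.07 at 24 h and -0.33 ± 0.07 at 6 h. With both probe sets averaged, the limma test passed at 24 h (-0.21, adjusted p = 0.034) and at 6 h (-0.29, adjusted p = 0.0149). The 6 h call of the reported probe set held without 24 h replicate 2 and failed without each of the other 8 arrays (adjusted p up to 0.151). ALDH1A1, which oxidises retinal, had 0.17 ± 0.06 at 24 h (adjusted p = 0.105).

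Both epoxide hydrolases and both carboxylesterases were measured, and 0 of 4 passed in any of the 3 comparisons by limma (at an unadjusted p under 0.05, 1 at 24 h, 2 at 6 h and 1 between them). EPHX1, the microsomal epoxide hydrolase, read 11.11, 11.11 and 11.10 at 24 h, 11.08, 10.97 and 11.04 at 6 h, and 11.21, 11.51 and 11.28 in vehicle. Both treated groups lay below vehicle, with log2 changes of -0.23 ± 0.08 at 24 h (unadjusted p = 0.0118, adjusted p = 0.0973 by limma) and -0.30 ± 0.08 at 6 h (unadjusted p = 0.00209, adjusted p = 0.0554). Without vehicle replicate 1 the 6 h change of EPHX1 was -0.36 and passed (adjusted p = 0.0434), as it did after quantile normalization (0.045) or median centring (0.0417). EPHX2, the soluble epoxide hydrolase, a peroxisomal and cytosolic enzyme, read 7.30, 7.37 and 7.33 at 24 h, 6.98, 7.05 and 7.16 at 6 h, and 7.13, 7.35 and 7.02 in vehicle. Its 24 h arrays lay above its 6 h arrays (0.27 ± 0.08, adjusted p = 0.0532), and that difference passed without vehicle replicate 2 (adjusted p = 0.0158) or 3 (0.0359), as did its change against vehicle without vehicle replicate 2 (0.26, adjusted p = 0.0461).

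Around the members, 157 further genes of drug metabolism were listed, of which 129 were measured. Of these, 16 rose and 6 fell at 24 h (107 not passing), and 2 rose and 6 fell at 6 h (121 not passing). For 24 h against 6 h, 23 were higher and 11 lower. These shares were 17.1% at 24 h, 6.2% at 6 h and 26.4% for 24 h against 6 h, where 8.17%, 3.54% and 13.8% of all genes passed. At the adjusted threshold the listed genes thus had more rises than falls at 24 h, and the 35 members more falls than rises. All genes also passed more often higher (5.38%) than lower (2.80%) at 24 h. At an unadjusted p under 0.05 in limma, 20 listed genes were higher and 25 lower at 24 h, and 3 members higher and 11 lower. The difference between the listed genes and the members was not tested. Among the other phase I enzymes the mitochondrial ALDH2 rose at 24 h (0.57 ± 0.06, adjusted p = 0.000323), and AKR1C3, which reduces ketosteroids, fell (-0.39 ± 0.05, adjusted p = 0.00138). Among the other phase II enzymes the histamine methyltransferase HNMT (0.54 ± 0.07, adjusted p = 0.00115) and GSTO2 (0.52 ± 0.09) rose at 24 h, and at 6 h 0 of 37 passed by limma (8 at an unadjusted p under 0.05).

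Of 22 other drug transporters, 3 rose and 0 fell at 24 h (4 higher and 4 lower at an unadjusted p under 0.05 in limma), among them SLC51A (0.70 ± 0.14, adjusted p = 0.00946) and SLC51B (0.58 ± 0.08, adjusted p = 0.0014), the 2 chains of the basolateral bile acid exporter. Of 15 other regulators, 4 rose and 0 fell at 24 h (5 higher and 3 lower at an unadjusted p under 0.05 in limma), with NR0B2, a repressor induced by bile acids, at 0.90 ± 0.06 (adjusted p = 5.26e-06) and the coactivator PPARGC1A at 0.56 ± 0.09 (adjusted p = 0.00377). At 6 h 1 regulator rose and 4 fell, among them RXRA, the dimer partner of NR1I2, NR1I3 and PPARα (-0.64 ± 0.07, adjusted p = 0.000736), and PPARGC1A (-0.64 ± 0.09, adjusted p = 0.00351). Of 16 other P450s and partners, CYP1A1 had -0.47 ± 0.08 at 24 h and 2.31 ± 0.08 at 6 h, both past the threshold, and CYP2W1 rose at 24 h (0.31 ± 0.08, adjusted p = 0.0305).

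**Figure D4:**
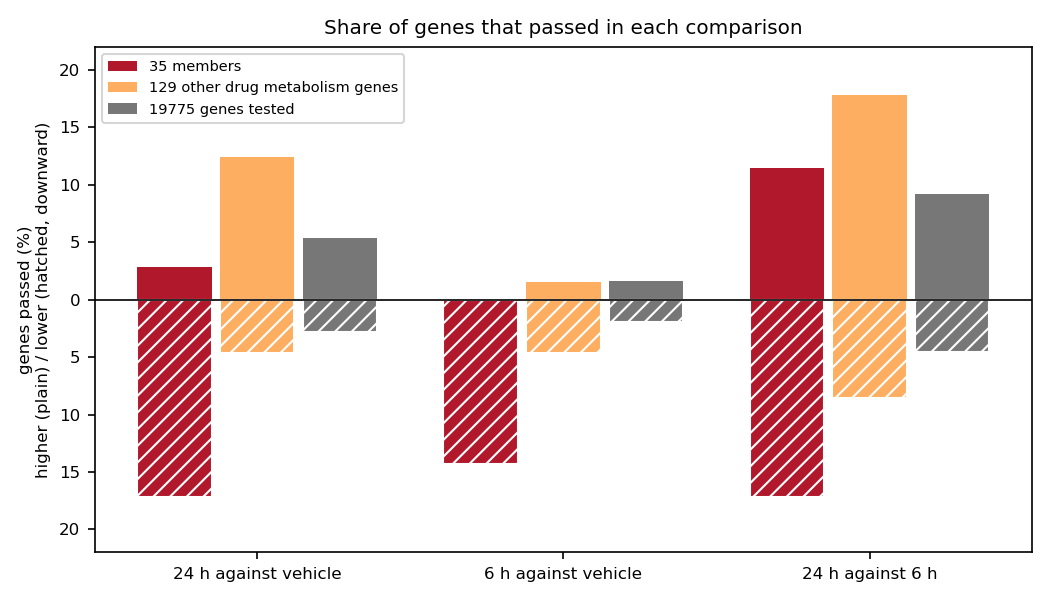
Share of genes (%) that passed at an adjusted p under 0.05, higher upward in plain bars and lower downward in hatched bars, for the 35 members, 129 other genes of drug metabolism and all 19775 genes, in each of 3 comparisons. Members fall more than they rise in both comparisons with vehicle, 6 against 1 at 24 h and 5 against 0 at 6 h, while 16 of the 129 other genes rise and 6 fall at 24 h.

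One measure of RNA integrity differed between the 24 h and 6 h arrays, both within the range of the vehicle arrays (-0.008 to 0.076). The 3′ minus 5′ signal of GAPDH was 0.020 ± 0.002 log2 units at 24 h, 0.055 ± 0.013 at 6 h and 0.045 ± 0.046 in vehicle (SD, n = 3 arrays), and the 24 h arrays lay below the 6 h arrays, while that of actin overlapped in all groups. Its part in the 10 differences between 24 h and 6 h was not tested.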

How the data were processed

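The values were the deposited log2 probe set signals of 9 arrays, used without further transformation. The submitters' processing notes name RMA, with no version, and the sources used here name neither software nor chip definition. RMA corrects background, brings arrays to 1 distribution and summarises probes by median polish. The deposited log2 values ran from 2.66 to 15.02, with 0 missing.

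The labels number replicates without saying that equal numbers belong together or that they are separate cultures. The p-values set each difference between groups only against the spread of these arrays within groups, which may be technical. With 3 arrays per group, precision is limited by their number.

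Of 54675 probe sets, 41091 were no controls and had 1 symbol, which gave 19775 genes. Group means over all 9 arrays were fitted with limma 3.58.1 in R 4.3.3 (lmFit, eBayes, two-sided), with Benjamini-Hochberg adjustment over all genes and a threshold of 0.05. For 3 arrays against 3, the smallest p of an exact permutation test is 0.1. Values of further probe sets come from the same model over all 41091 probe sets. The fit was tested on simulated data. Members and lists were chosen with earlier results of these data known. Values on every array are given for members that passed and for 9 set genes, 8 of them measured, and for 4 more, ABCC3, ABCG2, EPHX1 and EPHX2, chosen after their values were seen. Of each further list, up to 2 of the largest changes are named. Alternatives were the replicate block, only the compared groups, a robust prior that follows intensity, only genes brighter than the median, averaged probe sets, no shared probes (endings _x_at and _s_at), quantile normalization, median centring and leaving out each array.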

Additional observations from a re-analysis of the deposited data

Results flagged for a closer look

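For 10 members the 24 h arrays differed from the 6 h arrays, tested as the 24 h against 6 h contrast of the limma fit. Both times share the same vehicle arrays, which drop out of this difference but still count in the estimate of its spread. A change in the effect of GW7647 and time in culture therefore cannot be told apart. On the log2 scale, 24 h minus 6 h, the difference was -0.87 for UGT2B28, -0.40 for ADH4, -0.35 for ABCB1, -0.33 for NAT1, -0.26 for CYP2J2 and -0.24 for ABCC2. It was 0.57 for FMO5, 0.57 for SULT1A1, 0.54 for SULT2A1 and 0.23 for POR. The adjusted p lay between 2e-05 (UGT2B28) and 0.0344 (POR), and 13.8% of all genes passed this contrast. The ADH4 difference was -0.11 with its probe sets averaged (adjusted p = 0.285).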

How the results depend on the processing

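Of the 22 calls of single members, 19 could be run above the median signal and 17 without shared probes, and 22 under each other alternative. The block, only the compared groups, the intensity trend and the bright genes leave each log2 change as it was, so direction could not change there. Elsewhere the calls kept their direction, except SULT1A1 without shared probes. There a dim probe set gave -0.0367 at 24 h against vehicle and -0.0575 against 6 h, and the cause was not tested. Of the 22 calls, 16 to 18 still passed with any 1 array left out. With only the compared groups 17 passed, with averaged probe sets 19 and after quantile normalization 20. All 22 passed with the intensity trend and with median centring, and 14 of 17 without shared probes. The 5 members lower at 6 h became 2 with the replicate block, 2 with only the compared groups and 3 without shared probes; the 0 higher at 6 h became 1 above the median signal and 1 after quantile normalization. The 1 higher at 24 h became 2 with an intensity trend, 2 above the median signal and 0 without shared probes. With 1 array left out, members lower ranged from 4 to 6 and higher from 1 to 2 at 24 h, lower from 2 to 5 and higher from 0 to 0 at 6 h, and for 24 h against 6 h lower from 4 to 6 and higher from 3 to 5.

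Deviations of equal replicate numbers from their group means had correlations of -0.20 to 0.09 across genes. Whether equal numbers belong together cannot be settled this way, since 1 correlation over all genes can miss a likeness confined to some of them. In limma, the block left 18 of 22 calls in place. It ended the 6 h calls of ABCB1 (adjusted p = 0.0797), ABCC2 (0.0786) and ADH6 (0.0774) and the 24 h against 6 h call of ABCC2 (0.0524). UGT2B4 was added at 24 h against vehicle (0.0252) and against 6 h (0.00917). Over all genes, the 701 calls at 6 h became 427 with the block, 454 with only the compared groups, 454 without shared probes, 1104 with the trend and 1205 above the median signal, and 261 to 637 with 1 array left out. The 1616 calls at 24 h became 921 with only the compared groups, 2235 with the trend, 2343 above the median signal and 1005 to 1664 with 1 array left out. For 24 h against 6 h the 2729 calls became 1774 without shared probes and 1519 to 3082 with 1 array left out. They became 2984 with only the compared groups, 3308 with the trend and 3407 above the median signal. Signal near the array's floor limits what the 13 dim members can show.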
